A study of Mus musculus with 1536 samples.

Results

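Single serotonin neurons that held reads of both Zeb2 and Piezo2 were described among cells sorted from the mouse raphe nuclei. The cells were selected on their levels of Zeb2 and Piezo2, with at least 5 CPM of each, where CPM is a gene's share of the reads of its cell scaled to 1000000 reads, on the 11 plates of the wide dissection. This gate was passed by 106 of the 709 cells on these plates, out of 999 cells in the deposited table. The other 603 cells of the same plates were the comparison. Every cell came from C57BL/6J mice of 40 to 45 days that carried Sert-Cre and the Ai14 reporter, so that Cre driven by the serotonin transporter gene had switched on tdTomato in cells with a present or past use of that gene. The labels call the wide dissection All DR, and the study's methods say that it took in the median raphe (MR) and the caudal dorsal raphe (cDR) beside the principal dorsal raphe (pDR), from several brains. The other 5 plates hold pDR cells alone. The labels tie no cell or plate to an animal, so the wide dissection could only be treated as 1 sample, and no p-value was computed. The spread between plates, which may be technical, is given in its place.

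Serotonin neurons make serotonin from tryptophan through tryptophan hydroxylase and an amino acid decarboxylase, load it into vesicles with VMAT2 and take it back up with the serotonin transporter. The median raphe lies at the midline below the dorsal raphe, and its serotonin axons are known for reaching the hippocampus and septum, among other places. Zeb2 is a zinc finger and homeodomain repressor that binds E-box sequences and takes part in the development of neurons and glia. Piezo2 is an ion channel opened by mechanical force, best known from touch and proprioceptive sensory neurons.

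Members held a median of 53.7 CPM of Zeb2 (11.2 to 193) and 64.7 CPM of Piezo2 (6.30 to 202). These values chose the cells and are a description only. The member nearest the threshold had 6.30 CPM of Piezo2 on 11 reads, and the next had 7.75 CPM on 3 reads. A read of both genes was found in 0 of the 603 other cells. Of these others, 36 passed the threshold for Zeb2 alone, 9 passed it for Piezo2 alone and 558 passed neither. Among the cells that passed for Zeb2 alone, 5 had mostly members as their nearest cells by other genes, as described below. On the pDR plates 0 of 290 cells passed both, although 2 of them passed for Zeb2 and 6 for Piezo2. With 3 cells taken as the limit for a count of 0, a share of up to 1.03% is allowed.

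Members were found on every plate of the wide dissection, at unequal shares. SER48 held 34 members among 76 cells (44.7%, exact 95% interval 33.3 to 56.6%), SER56 held 11 among 27 (40.7%, 22.4 to 61.2%) and SER55 held 17 among 52 (32.7%, 20.3 to 47.1%). These 3 plates held 62 of the 106 cells. The lowest share was on SER52, with 3 among 77 (3.90%, 0.811 to 11.0%), and the median over plates was 9.72%. Intervals cover the error of counting cells only, and not differences between animals, which the labels do not name. What set the shares apart was not tested.

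**Figure D1:**
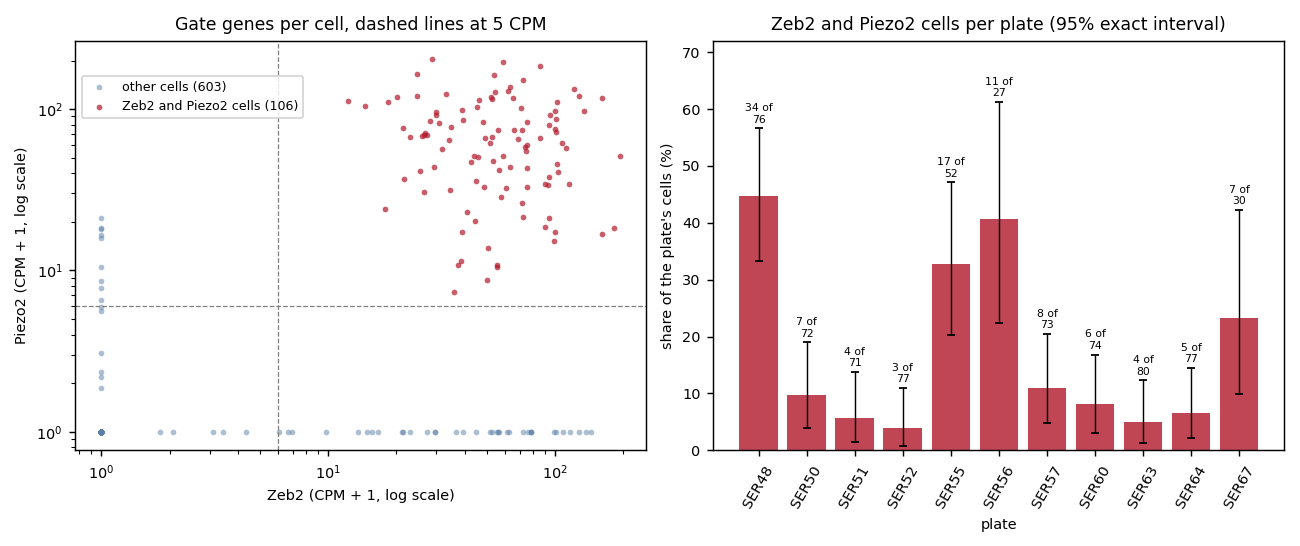
Left, the level of Zeb2 and of Piezo2 in each of the 709 cells (CPM + 1, log axes), with the 106 selected cells in red, the 603 other cells in blue and dashed lines at 5 CPM. Right, the share of each plate's cells that passed the gate, with exact 95% intervals and the counts above the bars. No other cell lies off both axes of the left panel, and the share runs from 3.90% on SER52 to 44.7% on SER48.

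The sets differed little in depth. Members had a median of 906692 reads on genes (328947 to 1907393) and 9429 detected genes, against 865680 reads (96834 to 2493904) and 9489 genes in the other cells. After every cell was thinned to 250000 reads, which left out 8 of the other cells and 0 members, the medians were 8653 and 8644 genes. A single member on SER60 stood apart with 5300 genes. Markers of some other cell types moved with the members at low levels. Summed over 12 oligodendrocyte markers the plate means ran from 96.9 to 250 CPM in members and from 115 to 2431 CPM in the others, with Mog, Cldn11, Opalin and Olig2 at 0 in members, and were higher in members on 4 of 11 plates. Cnp led that list with a mean of 62.0 CPM in members against 82.6 CPM. The 9 astrocyte markers summed to 14.8 to 47.8 CPM against 10.4 to 119 CPM and were higher in members on 8 plates, led by Slc1a2 at a mean of 27.8 CPM in members against 16.7 CPM. The 8 microglial markers summed to 0 to 9.55 CPM in members (median 2.90) against 0 to 1.68 CPM (median 0.617) and were higher in members on 10 plates, led by Aif1 (1.58 CPM against 0.311 CPM), with C1qa at 0. The 8 endothelial and mural markers summed to 0 to 1.42 CPM against 0 to 46.9 CPM and were higher in members on 2 plates, led by Pecam1 (0.310 CPM against 0.0539 CPM), with Cldn5, Flt1, Kdr, Cdh5 and Vtn at 0. The 5 ependymal markers summed to 7.95 to 26.1 CPM against 6.04 to 13.1 CPM and were higher in members on 9 plates, led by Rsph1 (10.8 CPM against 6.97 CPM), with Ccdc153 and Tmem212 at 0. Another of them, Dynlrb2, was lower, read in 5 of 106 members and 166 of 603 other cells (log2 ratio -1.57 ± 0.60, SD, n = 11 plates). The part of these RNAs in the results below was not tested.

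Members held reads of the listed serotonin enzymes and transporters at mean levels within 2-fold of the other cells. Tph1, the other tryptophan hydroxylase, is not on that list. It was higher in members on all 11 plates (log2 ratio 2.84 ± 0.52) and is described under other observations. Tph2, the neuronal tryptophan hydroxylase, was read in 106 of 106 members, and its plate means ran from 11866 to 14587 CPM (median 13178) against 6936 to 10533 CPM (median 9897) in the others. The plate means did not overlap, and the mean log2 ratio was 0.47 ± 0.20 (SD, n = 11 plates). Of 11481 genes with a mean of at least 2 CPM, all plate means of members lay above those of the others in 183 (1.59%) and below them in 514 (4.48%). Maoa, which breaks serotonin down, was also above the others on all 11 plates, at 169 to 269 CPM against 102 to 134 CPM (log2 ratio 0.84 ± 0.18). Its relative Maob went the other way, at 206 to 625 CPM against 826 to 1278 CPM (-0.99 ± 0.49). Gch1, the first enzyme of the tetrahydrobiopterin cofactor of Tph2, had 590 to 800 CPM against 990 to 1151 CPM (-0.59 ± 0.17), and its feedback regulator Gchfr had 314 to 475 CPM against 484 to 757 CPM (-0.68 ± 0.14). For Gch1, Gchfr and Maob the members lay below the others with no overlap of plate means. The transporter Slc6a4 (log2 ratio -0.37 ± 0.22), the vesicle transporter Slc18a2 (0.34 ± 0.28), the decarboxylase Ddc (-0.17 ± 0.15) and the transcription factor Fev (-0.21 ± 0.19) overlapped between the sets. Slc18a2 shares exons with a gene on the other strand, and the counting ignored strand.

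A gene was called higher or lower where the mean log2 ratio over plates, with 1 CPM added to both means, was at least 1 in size, which is 2-fold, and had the same sign on all 11 plates. Of the 11481 genes, 187 were called higher (1.63%) and 666 lower (5.8%). The counts in each list below are to be read beside these shares, and a count of 0 in a short list is near them. The median log2 ratio over all of them was -0.09. The 17 serotonin genes listed leave out Tph1. Of these 17, 16 were measured at this level, and 0 were called higher and 2 lower, with a list median of -0.29. Both are developmental transcription factors. Gata2 had 36.3 to 95.7 CPM in members against 157 to 199 CPM (-1.50 ± 0.36), while its paralog Gata3 had 388 to 946 CPM against 325 to 553 CPM (0.62 ± 0.25). En1, a homeobox factor of the midbrain and hindbrain border, was read in 12 of 106 members and 426 of 603 other cells. Its plate means ran from 0 to 6.76 CPM against 7.40 to 20.8 CPM (-2.95 ± 1.21). Lmx1b, another factor of serotonin neurons, did not separate the sets (-0.14 ± 0.69).

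**Figure D2:**
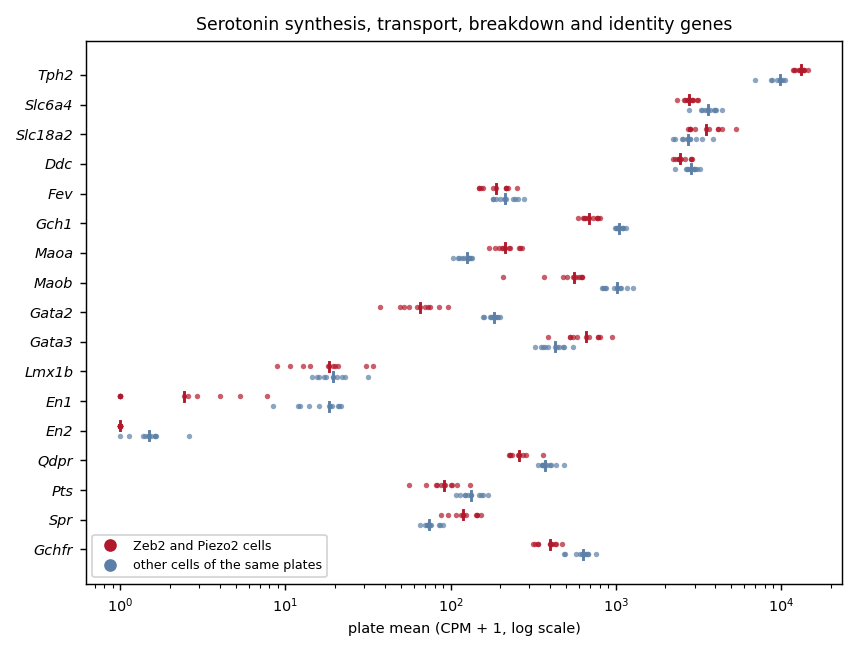
Mean level of 17 serotonin genes on each of the 11 plates (CPM + 1, log axis), in the selected cells (red) and in the other cells (blue). Each point is 1 plate and each bar the median over plates. Tph2 and Maoa lie higher and Gch1, Maob, Gata2 and En1 lower in the selected cells with no overlap of plate means.

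The genes with the largest positive differences were near absent from most other cells. Pter, a phosphotriesterase relative that hydrolyses N-acetyltaurine, was read in 106 of 106 members and 78 of 603 other cells, and its plate means ran from 80.3 to 160 CPM (median 87.0) against 0.542 to 15.0 CPM (median 1.48). The log2 ratio was 5.03 ± 0.80. C1ql3, a secreted synaptic organizer of the C1q family, had 84.5 to 171 CPM against 0.427 to 16.4 CPM (4.92 ± 0.94). Stxbp6, a SNARE-binding protein, had 177 to 282 CPM against 3.61 to 24.5 CPM (4.50 ± 0.64). Bcl11b, a zinc finger transcription factor, had 29.0 to 98.1 CPM against 0 to 6.35 CPM (4.39 ± 1.22). Clrn1, a tetraspan protein of sensory hair cells, had 27.9 to 106 CPM against 0 to 6.01 CPM (4.33 ± 1.24), and was read in only 76 of the 106 members. For all 5 genes the lowest plate of members was above the highest plate of the others.

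The rest of the 15 leading genes followed at lower ratios. The chemokine Cxcl12 had 85.4 to 128 CPM against 0.779 to 15.8 CPM (4.19 ± 1.09), and the muscarinic receptor Chrm2 had 250 to 408 CPM against 6.77 to 39.5 CPM (4.14 ± 0.51). Kcnh8, Fbxl7, Adamtsl1, Ctla2a, Ighg2c, Gm37811, Egflam and Tes had log2 ratios from 3.17 to 3.85. Gm37811 lies on the other strand across the C1ql3 exons, so its reads cannot be told from those of C1ql3, and Chrm2, Egflam and Tes also share exons with a gene on the other strand.

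Other genes were read in few members or at low levels in them. Chn2, a Rac GTPase-activating protein, was read in 7 of 106 members and 585 of 603 other cells, at 0 to 6.78 CPM against 104 to 163 CPM (-6.32 ± 1.01). Glra2, a subunit of the glycine receptor, was read in 0 of 106 members, which allows a share of up to 2.83%, and in 527 of 603 other cells (87.4%). Against the limit that 3 reads over all members together set, 0.0307 CPM, its level was at least 2172-fold lower in members. Car10, an inactive relative of carbonic anhydrase, was read in 4 members and 573 other cells, at 0 to 19.7 CPM against 80.7 to 128 CPM (-5.88 ± 1.48). Galntl6 was read in 1 member and 569 other cells, Htr1d in 1 and 468, Spock1 in 2 and 491, and Alcam, a cell adhesion molecule, in 7 and 504. Necab2, a calcium-binding protein, kept a low level in 36 members, at 0 to 18.3 CPM against 219 to 318 CPM (-5.38 ± 1.31), and Nxph4 in 25. Cbln4, Dlk1, Sostdc1, Htr5b, Asb4 and Calcr completed the 15, and were themselves read in only 21.6 to 55.4% of the other cells. Of the 666 genes called lower, 71 had no read in any member, and 12 of these were read in more than 50% of the other cells.

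**Figure D3:**
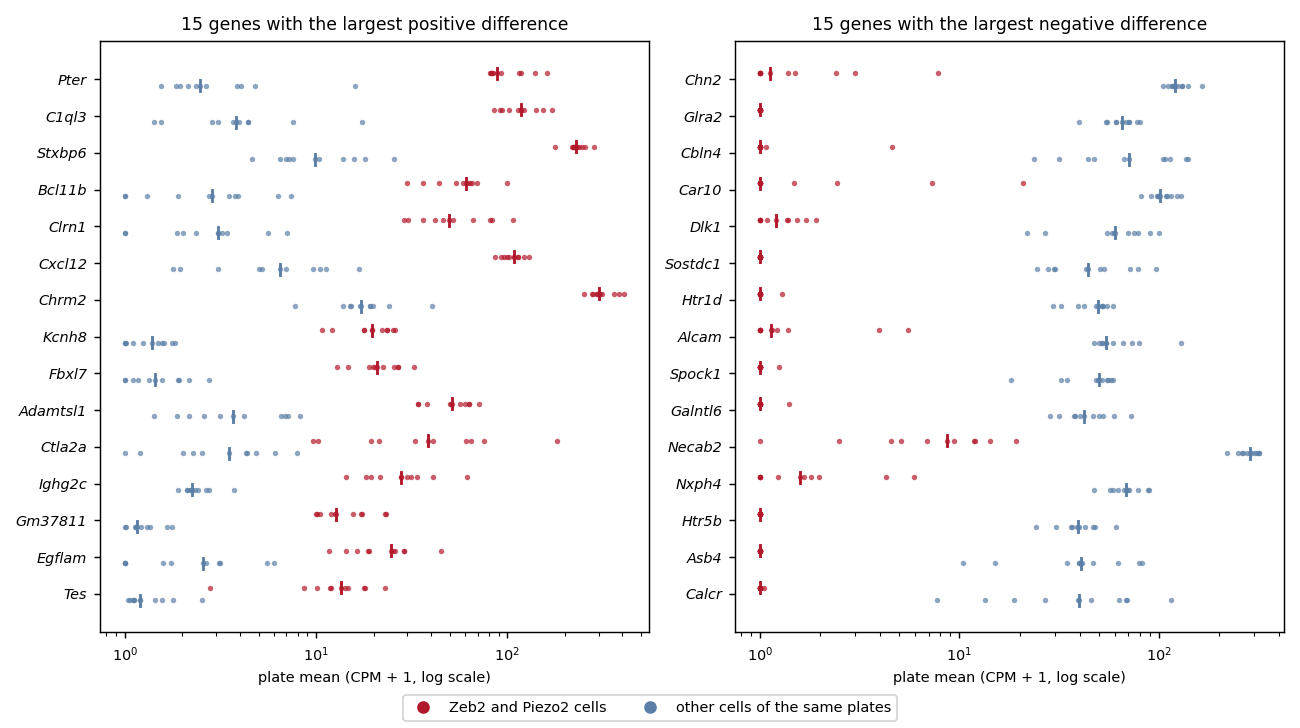
Mean level on each plate (CPM + 1, log axis) of the 15 genes called higher and the 15 called lower with the largest differences, in the selected cells (red) and the other cells of the same plates (blue). Each point is 1 of 11 plates and each bar the median over plates. The 2 sets of plate means do not overlap for any of the 30 genes.

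The leading genes also held a few groups of neighbours on the chromosome. Pter (chr2:12924041-13003455, + strand) and C1ql3 (chr2:13003457-13011806, - strand), the genes with the largest ratios, run towards each other with their annotated 3′ ends 2 positions apart on GRCm38. Reads that run past either end would be counted on its neighbour, and their part in these values was not tested. Rsu1, 65.0 kb beyond C1ql3 and coding for a Ras suppressor, was also called higher, at 21.6 to 61.3 CPM against 11.3 to 27.0 CPM (1.02 ± 0.52). On chromosome 6, Tes (17065149 to 17105828), Cav2 (17281185 to 17289115) and Met (17463800 to 17573980) were all called higher. The caveolin gene Cav2 had 163 to 350 CPM against 28.0 to 82.7 CPM (2.56 ± 0.36), and Met, the receptor of hepatocyte growth factor, had 6.22 to 28.3 CPM against 0 to 4.24 CPM (3.13 ± 0.89). Cav1, between them, was read in 73 of 106 members and 8 of 603 other cells but was above the others on 10 of 11 plates, so it was not called. Capza2 and St7, next to Met, differed little, with log2 ratios of 0.13 ± 0.14 and 0.18 ± 0.47. Of the 187 genes called higher, 23 (12.3%) had another of them within 200 kb without overlap, against 6.41% of all genes tested. The 23 include Pter, C1ql3 and Gm37811, between which reads may be shared. For genes called lower the shares were 17.3% and 16.4%. Rsu1, Cav2, Cav1, Capza2 and St7 were singled out after their values were seen.

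Sequence upstream of the start was examined because Zeb2 binds the E-box CACCTG, searched here on both strands as CACCTG or CAGGTG, which are the same site. RefSeq windows on GRCm38 were found for 146 of the 187 genes called higher, and 31 of these genes (21.2%) held it within 250 bases before a start. It was held by 26.7% of the 502 matched genes called lower and by 18.4% of the 8870 matched among all genes tested. Windows of 3 genes are shown, Pter and Cxcl12 as genes of the largest ratios and Nrxn3 as one that holds the site, with the E-box in capitals. They lie at chr2:12923791-12924040 (+ strand), chr6:117168285-117168534 (+ strand) and, for the second of 3 Nrxn3 starts, chr12:88953140-88953389 (+ strand), and overlap no annotated exon.
Pter: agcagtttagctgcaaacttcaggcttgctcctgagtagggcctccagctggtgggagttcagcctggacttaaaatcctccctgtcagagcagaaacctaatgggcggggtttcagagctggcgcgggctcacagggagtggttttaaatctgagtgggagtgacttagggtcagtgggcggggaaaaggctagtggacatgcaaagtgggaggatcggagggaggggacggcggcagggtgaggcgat
Cxcl12: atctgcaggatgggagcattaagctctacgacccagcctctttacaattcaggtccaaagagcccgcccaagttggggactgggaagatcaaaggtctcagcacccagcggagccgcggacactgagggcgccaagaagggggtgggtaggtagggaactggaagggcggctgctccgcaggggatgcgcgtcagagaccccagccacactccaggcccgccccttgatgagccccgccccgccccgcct
Nrxn3: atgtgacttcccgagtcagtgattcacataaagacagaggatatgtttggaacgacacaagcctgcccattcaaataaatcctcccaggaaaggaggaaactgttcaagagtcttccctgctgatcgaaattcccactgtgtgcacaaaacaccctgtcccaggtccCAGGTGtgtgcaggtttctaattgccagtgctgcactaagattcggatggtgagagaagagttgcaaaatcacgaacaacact
A match is a description of the letters, not a sign of binding.

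Among receptors, members differed from the other cells in most families for the small transmitters. Of 5 acetylcholine receptor genes measured, 2 were called higher and 0 lower (list median 0.93). They are Chrm2 and Chrm1, with Chrm1 at 16.5 to 41.9 CPM against 0.211 to 4.57 CPM (3.08 ± 0.65). Chrnb2, a nicotinic subunit, was at a similar level in both sets (-0.38 ± 0.35). Of 8 adrenergic, dopamine and histamine receptor genes, 7 were called lower and 0 higher (median -2.41). The adrenergic receptor Adra1b was read in 39 of 106 members and 592 of 603 other cells, at 0 to 12.8 CPM against 22.5 to 41.9 CPM (-3.35 ± 0.87). Adra2a was read in 12 members and 456 other cells, and the dopamine receptor Drd2 in 3 and 206. Adra2c (-2.33 ± 1.03) and the histamine receptor Hrh1 (-1.07 ± 0.59) were also lower, as was Hrh3, which was named after its values were seen.

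Serotonin receptors split between members of 1 family. Of 6 measured, 1 was called higher and 3 lower, with a median of -2.39, or -4.0 with genes that members lacked set at their limit. Htr1a, the inhibitory receptor on serotonin neurons themselves, had 148 to 275 CPM against 69.9 to 129 CPM (1.10 ± 0.25). The other autoreceptor, Htr1b, had 0 to 9.83 CPM against 13.6 to 33.9 CPM (-2.52 ± 1.07) and was read in 37 of 106 members and 503 of 603 other cells. Htr1d and Htr5b were near or at 0 in members, as given above, with other cells at plate means of 28.4 to 57.7 CPM and 23.3 to 59.9 CPM.

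A smaller share of the glutamate and GABA receptor genes was called than in the families above. In both lists the share called lower was still above the 5.8% over all genes tested. Of 18 glutamate receptor genes, 1 was called higher and 3 lower (median -0.26). Grm7, an inhibitory metabotropic receptor, had 77.0 to 137 CPM against 37.5 to 66.3 CPM (1.12 ± 0.28). Its relative Grm8 was read in 0 members and 423 other cells and the NMDA receptor subunit Grin2a in 0 and 379, at least 889-fold and 622-fold lower. Grik2, a kainate receptor subunit, was lower by a log2 ratio of -1.26 ± 0.86. The AMPA receptor subunits Gria2 (-0.86 ± 0.26) and Gria4 (0.71 ± 0.33) did not reach 2-fold. Of 15 GABA receptor genes, 0 were called higher and 3 lower (median -0.57), namely Gabre (-3.30 ± 0.68), Gabrg1 (-2.65 ± 0.92) and Gabrq (-1.97 ± 0.88), while Gabrb1 and Gabra2 were at -0.57 and -0.44.

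Of 21 peptide receptor genes, 1 was called higher and 12 lower, with a median of -2.24, or -3.29 with absent genes at their limit. The oxytocin receptor Oxtr was the one that was higher. It was read in 106 of 106 members and 245 of 603 other cells, at 40.4 to 117 CPM against 6.16 to 14.8 CPM (2.82 ± 0.50). The receptors for corticotropin-releasing factor and urocortins, Crhr2, for parathyroid hormone 2, Pth2r, and for neuropeptide Y, Npy2r, had 0 reads in members, and were read in 47.9%, 32.7% and 26.5% of the other cells. Both orexin receptors were lower. Hcrtr2 was read in 4 members and 320 other cells (-4.17 ± 0.88), and Hcrtr1 in 65 and 550, at 7.58 to 55.2 CPM against 184 to 327 CPM (-3.29 ± 0.94). Oprl1, the nociceptin receptor, was at about the same level (0.09 ± 0.26).

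The genes for transmitters other than serotonin did not all differ in 1 direction. Slc17a8, which codes for the vesicular glutamate transporter VGLUT3, was read in about the same share of cells, 79 of 106 members (74.5%, 65.1 to 82.5%) and 439 of 603 other cells (72.8%, 69.1 to 76.3%), and in 73.6% and 70.9% after thinning. Its level was lower, at 13.3 to 81.1 CPM against 62.7 to 154 CPM (-1.64 ± 0.73), with plate means that overlapped. Gad2, a GABA-synthesizing enzyme, was read in 30 members (28.3%, 20.0 to 37.9%) and 127 other cells (21.1%, 17.9 to 24.5%), and Gad1 in 2 and 28. The plate means of Gad2 were 38.4 ± 37.6 CPM in members and 20.4 ± 8.00 CPM in the others (SD, n = 11 plates), higher in members on 7 plates and lower on 4, with overlap. The vesicular GABA transporter Slc32a1 was read in 0 members, which allows up to 2.83%, and 1 other cell. Reads of Slc17a8 with Gad1 or Gad2 stood in 25 members (23.6%, 15.9 to 32.8%) against 64 other cells (10.6%, 8.27 to 13.4%). The shares in this paragraph pool cells over plates, which held members at unequal shares. Their intervals cover the error of counting cells only. Cells with reads of both kinds were not compared plate by plate. In all, 4 of 5 transmitter genes measured were called lower and 0 higher (median -1.64). Gad1 was 1 of the 4 (-3.22 ± 1.35), but few cells of either set held it and its plate means overlapped. Its shares, 1.89% (0.229 to 6.65%) in members and 4.64% (3.11 to 6.64%) in the others, had overlapping intervals. The ratio of Nos1, at -1.55 ± 1.59, varied between plates by more than its size. Of 10 neuropeptide genes, 1 was called higher and 2 lower (median -0.53). Npb, the precursor of neuropeptide B, had 6.32 to 18.0 CPM against 0.0410 to 1.93 CPM (2.42 ± 0.51), Pdyn, the precursor of dynorphin, was read in 1 member and 200 other cells, and galanin, Gal, in 7 and 235.

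Transcription factors set members apart in both directions. Of 29 listed and measured, 4 were called higher and 11 lower (median -1.56, or -1.72 with absent genes at their limit). Beside Bcl11b, the POU factor Pou3f1 had 40.8 to 87.5 CPM against 2.71 to 16.2 CPM (2.97 ± 0.80), the nuclear receptor Nr2f2 had 136 to 235 CPM against 21.4 to 56.9 CPM (2.39 ± 0.40), and the zinc finger homeobox gene Zfhx4 had 112 to 167 CPM against 50.6 to 79.3 CPM (1.10 ± 0.30). Zeb1, the paralog of the gate gene Zeb2, was read in 23 of 106 members and 550 of 603 other cells, at 0 to 15.5 CPM against 30.8 to 42.6 CPM (-3.48 ± 1.08). Pbx3 was read in 12 members and 333 other cells (-3.96 ± 1.09), Irx2 in 0 and 154, and the estrogen receptors Esr1 and Esr2 had log2 ratios of -2.77 ± 0.88 and -2.60 ± 0.92. None of 13 Hox genes reached the level needed to be measured.

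Genes of the cell surface and of axon guidance followed. Of 57 genes measured in the axon guidance list, 4 were called higher and 16 lower (median -0.70). The list was filled by symbol and includes Unc50, which is not a guidance gene and was not called (-0.04 ± 0.31). The semaphorin co-receptors of the neuropilin family parted, with Nrp1 at 26.3 to 76.7 CPM against 4.64 to 30.6 CPM (2.33 ± 0.78) and Nrp2 read in 0 of 106 members and 181 of 603 other cells. Ephb6 (1.64 ± 0.39), Sema6d (1.56 ± 0.30) and Ntng1 (1.33 ± 0.36) were also higher. Sema5a was read in 2 members and 397 other cells, and Epha5 in 17 and 512. Of 43 cadherins and protocadherins, 3 were called higher and 11 lower (median -0.30). Pcdh8 had 64.3 to 113 CPM against 13.5 to 38.6 CPM (2.04 ± 0.48), with Pcdh20 (2.02 ± 0.58) and Pcdh15 (1.93 ± 0.86) close to it. Cdh11 was read in 3 members and 396 other cells, and Pcdh7 in 1 and 276. Of 20 genes of the C1q-like, cerebellin, neurexin and neuroligin list, 3 were called higher and 5 lower (median -0.15). Nrxn3, a presynaptic neurexin, had 347 to 536 CPM against 47.7 to 98.0 CPM (2.58 ± 0.29), C1ql1 had 8.07 to 40.1 CPM against 2.26 to 18.7 CPM (1.24 ± 0.66), and Cbln2 had 23.6 to 83.9 CPM against 88.4 to 216 CPM (-1.36 ± 0.71).

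Growth factor and calcium-binding genes were called in both directions. Of 27 growth factors, chemokines and receptors, 6 were called higher and 12 lower (median -1.02). The receptor tyrosine kinase Kit had 58.4 to 107 CPM against 6.86 to 25.6 CPM (2.17 ± 0.64), Fgf13, which binds sodium channels, had 546 to 815 CPM against 228 to 397 CPM (1.36 ± 0.31), and the BDNF receptor Ntrk2 had 211 to 329 CPM against 103 to 160 CPM (1.01 ± 0.16). Gfra1, a co-receptor for GDNF, had 0.397 to 11.7 CPM against 124 to 171 CPM (-5.09 ± 0.94), and Wnt4 was read in 1 member and 329 other cells. Of 15 calcium-binding genes, 1 was called higher and 4 lower (median -0.25). Calb2, calretinin, had 192 to 413 CPM against 20.5 to 55.7 CPM (2.83 ± 0.52), whereas Calb1, calbindin, had 0 to 18.3 CPM against 27.8 to 204 CPM (-4.81 ± 1.90) and was read in 19 members and 430 other cells. Ncald was lower at 148 to 284 CPM against 544 to 720 CPM (-1.54 ± 0.31).

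The ion channel lists differed in how many genes were called. Of 49 genes measured in the potassium channel list, 4 were called higher and 9 lower (median -0.13), both larger shares than the 1.63% and 5.8% over all genes tested. The list was filled by symbol and includes Kcnq1ot1, which does not code for a channel and was not called (-0.42 ± 0.37). Kcnh8 led at 9.75 to 24.9 CPM against 0 to 0.822 CPM (3.85 ± 0.37), and Kcnab1, a beta subunit, was read in 0 members and 315 other cells. Of 26 sodium, calcium and HCN channel genes, 0 were called higher and 1 lower (median -0.04), which was Scn1a at 11.8 to 28.3 CPM against 41.1 to 56.4 CPM (-1.37 ± 0.26). Both counts are near the shares over all genes tested. In the list of TRP, acid-sensing and Tmem63 channels, which holds other channels of touch, heat and acid sensing, 12 genes were measured, 0 were called higher and 2 lower (median -0.23). Asic2 was read in 38 of 106 members and 581 of 603 other cells (-3.92 ± 1.38), and Tmem63b (0.18 ± 0.34) and Trpv2 (-0.32 ± 0.36) differed little. The neurofilament genes Nefl (-1.53 ± 0.77), Nefm (-1.59 ± 0.80) and Nefh (-1.19 ± 0.75) were called lower, which was 3 of 5 in their list (median -1.53), and their plate means overlapped. Nefl and Nefm share exons on opposite strands. Of 13 immediate-early genes, 0 were called in either direction (median -0.53), with Fos at -0.53 ± 0.63.

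**Figure D4:**
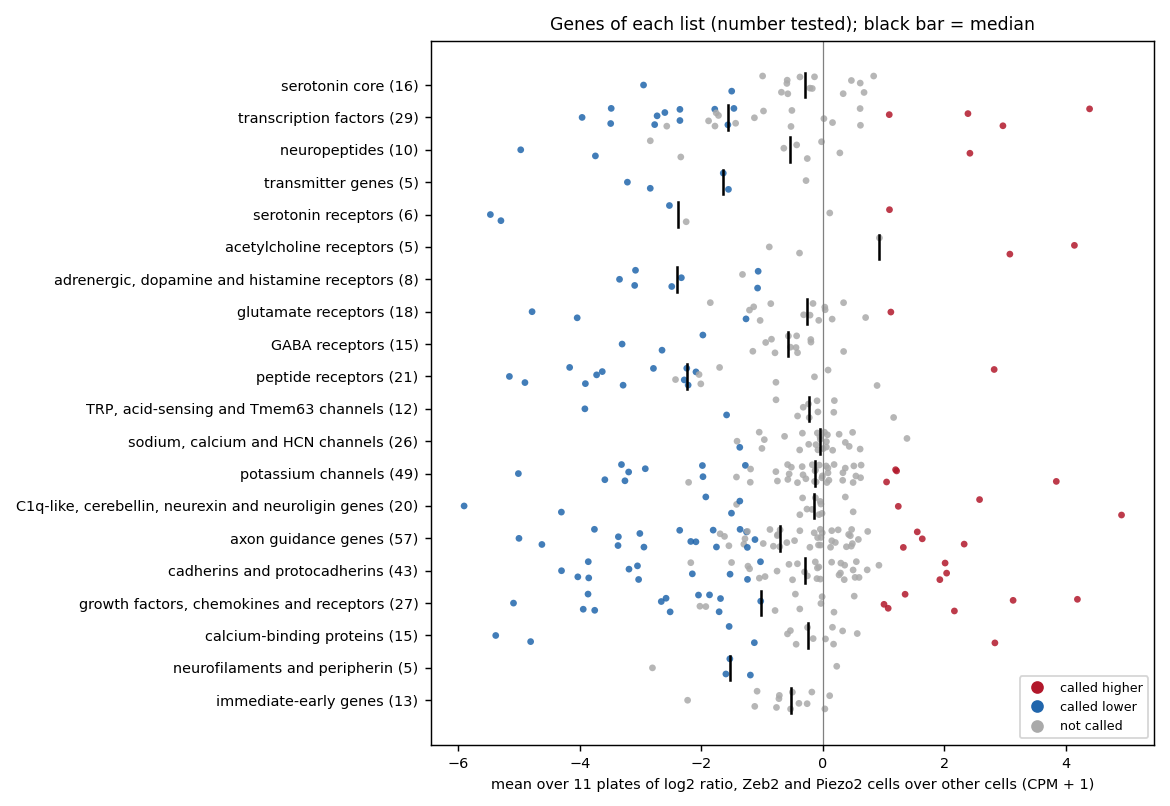
Mean over the 11 plates of the log2 ratio of mean CPM + 1, selected cells over other cells, for each measured gene of 20 lists, with the number measured in brackets. Red points were called higher, blue points lower and grey points neither, and black bars are list medians. Adrenergic, dopamine and histamine receptors (median -2.41) and peptide receptors (-2.24) lie mostly to the left, and sodium, calcium and HCN channels (-0.04) around 0.

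The label of these cells was checked against the marker genes that the study lists for its clusters, which were chosen on these same cells and are not independent evidence. Of 13 markers of the cluster MR-4, 11 were called higher and 0 lower (median 4.14). Cxcl12 and Met, both among those called, are also named by the study for other clusters. Of 19 measured markers of MR-1 to MR-3, 0 were called higher and 11 lower (median -2.39). Of 17 measured markers of the DR clusters, 0 were called higher and 10 lower (median -2.28), and of 8 of the cDR cluster, 0 and 4 (median -2.01). Ighm, on the cDR list, went the other way without being called. It was higher in members on 10 of 11 plates (1.47 ± 1.85). Of 5 measured markers that MR-4 shares with cDR, 4 were called higher (median 3.08). Of these, Chrm2, Met and Npb are also counted among the 11 of MR-4 above. They do not tell MR-4 from cDR. The files give no position of a cell, so that they lay in the median raphe was not checked here.

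When cells were compared by their other genes, members were near each other. With Zeb2, Piezo2 and the genes that overlap them left out, 96.9% of the 15 nearest cells of a member on 20 principal components were members, who made up 15.0% of the cells. All 15 were members for 72 of the 106. The member on SER60 with 5300 detected genes had 13.3% and was the only one under 50%. Among the other 603 cells, 5 had mostly members around them, and all 5 held Zeb2 at 5 CPM or more and no read of Piezo2. Of a member's nearest cells 45.1% were from its own plate, and the number of members on each plate alone would give 16.3%. Cells were drawn near by the same genes whose levels are described above, so this is a description of one pattern.

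The 36 Zeb2-only cells were compared first, since they share a gate gene. On the 7 plates with at least 3 cells of each kind, 63 members stood against 33 of them. Of 11481 genes, 197 were called higher in members (1.72%) and 239 lower (2.08%), by the same rule over 7 plates. Calcr, the calcitonin receptor, was read in 22 of the 36 Zeb2-only cells and 1 of all 106 members, Synpr, a synaptic vesicle protein, in 23 and 0, P2ry1, a purine receptor, in 22 and 0, Arpp21 in 25 and 1, and Htr5b in 27 and 0. Necab2 had plate means of 344 ± 154 CPM against 6.99 ± 6.23 CPM in members (SD, n = 7 plates). Elmo1, Car10, S1pr3 and Galntl6 were the others among the 10 largest. Higher in members were Ctla2a, Cxcl12 (104 ± 14.4 CPM against 16.6 ± 25.0 CPM), Pdgfd, a platelet-derived growth factor, Pou3f1 (70.7 ± 15.7 CPM against 6.06 ± 7.84 CPM), C1ql3, Pter, Oxtr, Stxbp6, B3galt1 and Bcl11b, with log2 ratios from 3.70 to 4.76. The Zeb2-only cells were mixed. Of the 36, 19 had reads of both Tacr3 and Tecrl. Tacr3 was read in 7 members and Tecrl in 8, and both together in 0. Another 6 of the 36 had reads of at least 3 of C1ql3, Bcl11b, Pter and Cxcl12, as all 106 members had. The remaining 11 had neither pattern. These genes were chosen after their values were seen.

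The 146 cells with at least 5 CPM of Irx2, a homeobox factor that the study lists among markers of other MR clusters, were compared on all 11 plates. Of 11480 genes, 208 were called higher in members (1.81%) and 497 lower (4.33%). Galnt18, a glycosyltransferase, was at 92.2 ± 18.9 CPM against 0.634 ± 0.951 CPM (SD, n = 11 plates) and was read in 5 of the 146 cells. Kit was at 80.1 ± 14.7 CPM against 1.17 ± 2.56 CPM, and Bcl11b, C1ql3, Cxcl12, Stxbp6, Clrn1, Pter, Chrm2 and Adamtsl1 followed with log2 ratios from 4.77 to 5.62. Sostdc1, a secreted inhibitor of BMP and WNT signals, was read in 63 Irx2 cells and 0 members, and Glra2 in 133 and 0. Alcam was at 110 ± 14.3 CPM against 0.761 ± 1.52 CPM in members, Gfra1 at 183 ± 23.6 CPM against 4.30 ± 3.09 CPM and Pitpnc1, a phosphatidylinositol transfer protein, at 179 ± 29.2 CPM against 5.38 ± 4.88 CPM. Car10, Chn2, Htr1d, Nxph4 and Galntl6 completed the 10. Both comparisons used the same members as the main one.

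Members also varied among themselves. Genes with a mean of at least 20 CPM that 25 to 75% of members held numbered 47, and they were ranked by the SD of log2(CPM+1) over cells. The heavy chain constant gene Ighm ranked first, read in 67 of 106 members (63.2%, 53.3 to 72.4%) at up to 1801 CPM, with plate means of 44.2 to 630 CPM in members and 0.931 to 149 CPM in the others. Ifi27, an interferon-induced gene, was read in 70 members, Ctla2a, a cysteine protease inhibitor, in 50, Gad2 in 30, Clrn1 in 76, Renbp in 44, Nxph1 in 69, Apoe in 53, Hcrtr1 in 65, Gm10800 in 67, Cd63 in 65, Slc17a8 in 79 and Zfp120 in 70. Thinning to 250000 reads moved none of these shares by more than 6 points. Pearson's r of ln(CPM+1), with plate means removed, ran from -0.27 to 0.36 over the 105 pairs of these 15 genes (n = 106 cells that share plates and depth). The highest was 0.36 for Ighm with Ctla2a, and 3 pairs were over 0.3.

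A pair of the 15 varied with the plate. Xist, the RNA of the inactive X chromosome in female cells, was read in 52 of 55 members on 9 plates and in 1 of 51 on SER48 and SER55. Gm26825, a lincRNA of chromosome 5, was read in all 51 members on these 2 plates and in 9 of 55 on the others. Those plates also held 51 of the 106 members. On the 9 plates with Xist alone, 182 genes were called higher and 714 lower, and 172 and 655 of them were the same genes as on all 11 plates. Sex and plate cannot be told apart here.

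**Figure D5:**
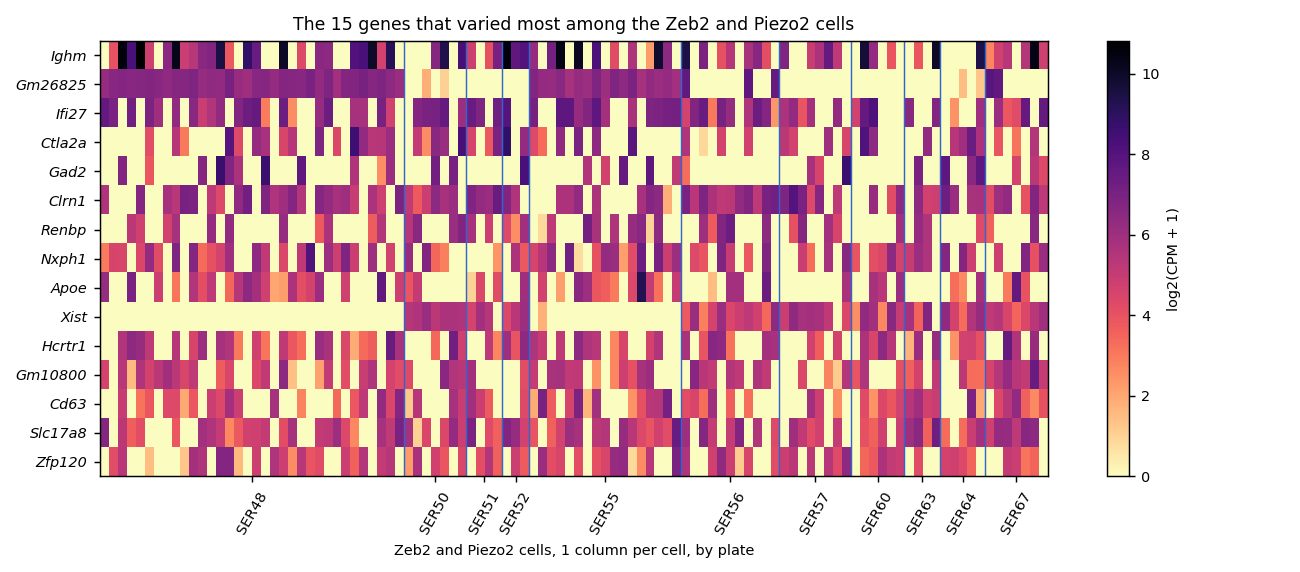
Levels of the 15 genes that varied most among the 106 selected cells, as log2(CPM + 1), with 1 column per cell in order of plate and blue lines between plates. Ighm, Ctla2a and Gad2 are high in some cells of a plate and 0 in others, whereas Gm26825 fills SER48 and SER55 and Xist the other 9 plates.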

How the data were processed

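Serotonin neurons were sorted by tdTomato into plates, 1 cell per well, and sequenced by Smart-seq2. Per the submitters' processing notes, the tools were bcl2fastq 2.19.0.316, STAR 2.6.1a and HTSeq 0.11.2 on mm10 (GRCm38). The authors deposited reads per gene as CPM (scaled to 1000000 reads a cell), from which whole reads were recovered in 100% of values (within 0.001). Reads were counted without regard to strand, and Y-linked genes had been removed by the authors.

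Cells with at least 5 CPM of Zeb2 and of Piezo2 on the 11 plates were set against the other cells of the same plates. Zeb2, Piezo2 and 5 genes that overlap them were left out. For each gene with a mean of at least 2 CPM, log2 of the ratio of mean CPM + 1 was taken per plate and averaged. A gene was called at a mean of at least 1 in size with the same sign on every plate. The labels tie no cell to an animal, so no test was run, and the SD over plates may be technical. Python 3.11.15, numpy 2.4.6, pandas 2.3.3, scipy 1.17.1 and matplotlib 3.10.9 were used, and the contrast was checked on simulated data. The genes named are the serotonin genes, the 15 largest called differences in each direction, in each list up to 6 called genes a direction and up to 4 uncalled genes with at least 50 CPM, the marker of each other cell type with the highest mean, the 15 genes that varied most, and the 10 largest in each direction against Zeb2-only and Irx2 cells. Alternatives changed the gate, the added CPM, the filter, the averaging, the depth, the comparison cells and the plates. The members and gene lists were chosen with earlier results of these data known. A few genes that this rule names are not reported here.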

Additional observations from a re-analysis of the deposited data

How the results depend on the processing

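The counts of 187 genes higher and 666 lower moved by over 1.5 times under 6 settings. Adding 10 CPM in place of 1 CPM gave 103 higher and 253 lower, and a minimum mean of 10 CPM gave 121 and 382. The difference of mean log2(CPM+1) gave 338 higher, and pooling cells over plates 325 higher. Without the requirement on every plate 1037 were lower. On the 2 plates without Xist alone, a setting chosen after seeing the data, 392 were higher. Leaving out each plate in turn gave 182 to 205 higher and 668 to 711 lower, and 96.3 to 97.7% of a member's neighbours were members. Of 3731 log2 ratios of the 130 called named genes under the alternatives, 0 changed sign and 267 moved by more than the SD over plates. The count of 0 was partly fixed in advance. A called gene had the same sign on every plate, so settings that only left out plates could not reverse it. Settings that changed only the filter or the requirement on plates left the ratios as they were. The causes of the moves were not tested. No paired analysis was possible because the labels tie no cell to an animal and no test was run. Every ratio was taken within a plate before averaging.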

Other observations

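Several genes outside the rule for named genes were singled out after their values were seen. Tph1, the tryptophan hydroxylase best known from the pineal gland and gut, was read in 93 of 106 members (87.7%, exact 95% interval 79.9 to 93.3%) and 101 of 603 other cells (16.7%, 13.9 to 20.0%), and in 85.8% and 15.0% after thinning. Its plate means ran from 19.9 to 43.0 CPM in members and from 1.80 to 6.86 CPM in the others (log2 ratio 2.84 ± 0.52, SD, n = 11 plates), with no overlap.

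Rab3b, a vesicle GTPase, had 672 to 929 CPM against 61.9 to 211 CPM (2.66 ± 0.44). The adhesion molecule Ncam2 had 157 to 249 CPM against 17.6 to 58.1 CPM (2.74 ± 0.53), and the imprinted gene Nnat had 602 to 882 CPM against 123 to 258 CPM (1.97 ± 0.38). The receptor Gpr35 had 80.8 to 164 CPM against 9.55 to 45.8 CPM (2.26 ± 0.54). For all 4 genes the lowest plate of members was above the highest plate of the others. Gpr139, another receptor, was read in 66.0% of members and 0.829% of other cells, and was above the others on 10 of 11 plates.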
